A study of Mus musculus with 2 samples.

Results

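The data described here are the H3K9me2 peaks of 3 Mb of mouse chromosome 19 (from 53 to 56 Mb, build mm10) that hold Shoc2 and Adra2a. Peaks were taken by position, and each was assigned to the RefSeq body of Shoc2 or Adra2a extended by 2 kb, to another gene, or to the space between genes. The region holds 16 of the 6253 peaks listed for the TBC1D3-transgenic library and 0 of the 743 peaks listed for the wild-type library. It was chosen from measured values, since it contains one of the densest runs of transgenic peaks. The counts, densities and spacings below are therefore descriptions and carry no test. The tissue was whole cortex of C57BL/6 embryos at embryonic day 15.5, from mice that carry TBC1D3, a hominoid gene, as a transgene and from wild-type mice. The promoter that drives the transgene is not given in the sources used here. H3K9me2, dimethylation of lysine 9 of histone H3, was measured by chromatin immunoprecipitation and sequencing, with 1 ChIP library and 1 input per genotype. There was no replicate of either genotype, and intervals cover counting error only. The depth after filtering was 20697113 ChIP tags in the transgenic library and 26735120 in the wild-type library.

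H3K9me2 is laid down in large part by G9a and its partner GLP and is typical of silent chromatin, where it often covers broad stretches between genes. Adra2a encodes the alpha-2A adrenergic receptor, a receptor for noradrenaline that couples to inhibitory G proteins and restrains transmitter release from neurons. Shoc2 encodes a leucine-rich repeat scaffold that joins Mras and a protein phosphatase 1 catalytic subunit in a complex that removes an inhibitory phosphate from Raf kinases, upstream of Erk. The series title pairs G9a with TBC1D3 and with cortical progenitors, and the question of the series is where the mark lies with and without the transgene.

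The promoters of both genes are shown because they mark where the genes start relative to the peaks. The body of Shoc2 in the gene table begins at 53944232, just before the upstream start site, and the place of a peak within the gene is counted from there. The promoters are printed from RefSeq's GRCm38.p6, each 300 bases from 250 before to 50 after a start site, 5′ to 3′ on the plus strand, with capitals marking the TATA box letters TATAAA, the GC box letters GGGCGG and the E-box letters CACGTG on either strand. The first is the Adra2a promoter at chr19:54045009-54045308, the second is the upstream Shoc2 start at chr19:53944056-53944355, and the third is the downstream Shoc2 start at chr19:53944626-53944925.
Adra2a: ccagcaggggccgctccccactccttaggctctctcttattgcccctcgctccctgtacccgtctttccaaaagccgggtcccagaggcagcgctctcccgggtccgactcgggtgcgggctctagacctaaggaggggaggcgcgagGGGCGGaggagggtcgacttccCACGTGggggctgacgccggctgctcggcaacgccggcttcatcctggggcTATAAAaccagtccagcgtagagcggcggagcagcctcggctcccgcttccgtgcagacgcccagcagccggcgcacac
Shoc2 upstream start: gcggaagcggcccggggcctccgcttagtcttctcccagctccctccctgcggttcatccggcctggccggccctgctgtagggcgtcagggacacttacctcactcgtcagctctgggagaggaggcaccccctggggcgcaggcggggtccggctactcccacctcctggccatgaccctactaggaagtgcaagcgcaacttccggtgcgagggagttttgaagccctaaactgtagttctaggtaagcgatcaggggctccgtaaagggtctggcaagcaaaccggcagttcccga
Shoc2 downstream start: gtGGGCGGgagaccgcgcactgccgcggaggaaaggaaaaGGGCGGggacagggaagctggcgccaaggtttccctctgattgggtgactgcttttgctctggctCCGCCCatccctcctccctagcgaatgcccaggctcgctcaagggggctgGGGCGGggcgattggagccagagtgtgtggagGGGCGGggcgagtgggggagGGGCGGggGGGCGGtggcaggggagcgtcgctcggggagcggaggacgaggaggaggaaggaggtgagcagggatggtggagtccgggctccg
The Adra2a promoter was 68.7% G and C with 28 CpG dinucleotides. The Shoc2 windows were 64% with 19 CpG at the upstream start and 70.3% with 23 CpG at the downstream start. All 3 were richer than the median of the 32851 RefSeq promoters of this length, which was 52.7% with 7 CpG. The Adra2a window held TATAAA once, from position -29, and CACGTG once, from position -80, counted from the start site. TATAAA was found in 13.6% and CACGTG in 7.15% of all promoters. The downstream Shoc2 window held GGGCGG 7 times and the Adra2a window once, where 35.7% of all promoters held at least 1. No 2 matches overlapped in these windows. No transgenic peak touched any of the 3 windows. The nearest summit, the base of highest pileup in a peak, was 8.19 kb from the Adra2a start and about 42 kb from both Shoc2 starts (42.6 kb from the upstream and 42.0 kb from the downstream one). Of the 56 promoter windows of all genes in the region, 0 overlapped a transgenic peak. Over the 32619 windows on the chromosomes used, 19 (0.0582%) did, so a count of 0 in 56 is near the background.

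The transgenic peaks were packed into the sequence that follows Adra2a. Of the 16 peaks, 14 lay between the end of Adra2a and the start of Gpam, which encodes a mitochondrial glycerol-3-phosphate acyltransferase and is the next coding gene. That interval is 1019 kb long and holds no coding gene. By contrast 1 peak lay in the 944 kb from the start of the region to Shoc2, 1 in the body of Shoc2, 0 in the 11.98 kb between Shoc2 and Adra2a, 0 in Adra2a, and 0 in the 932 kb from the Gpam start to the end of the region. The density between Adra2a and Gpam was 13.7 peaks per Mb (95% Poisson interval 7.51 to 23.1). In the rule's classes, 1 peak fell to Shoc2, 0 to Adra2a, 3 to noncoding genes and 12 to the space between genes.

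**Figure D1:**
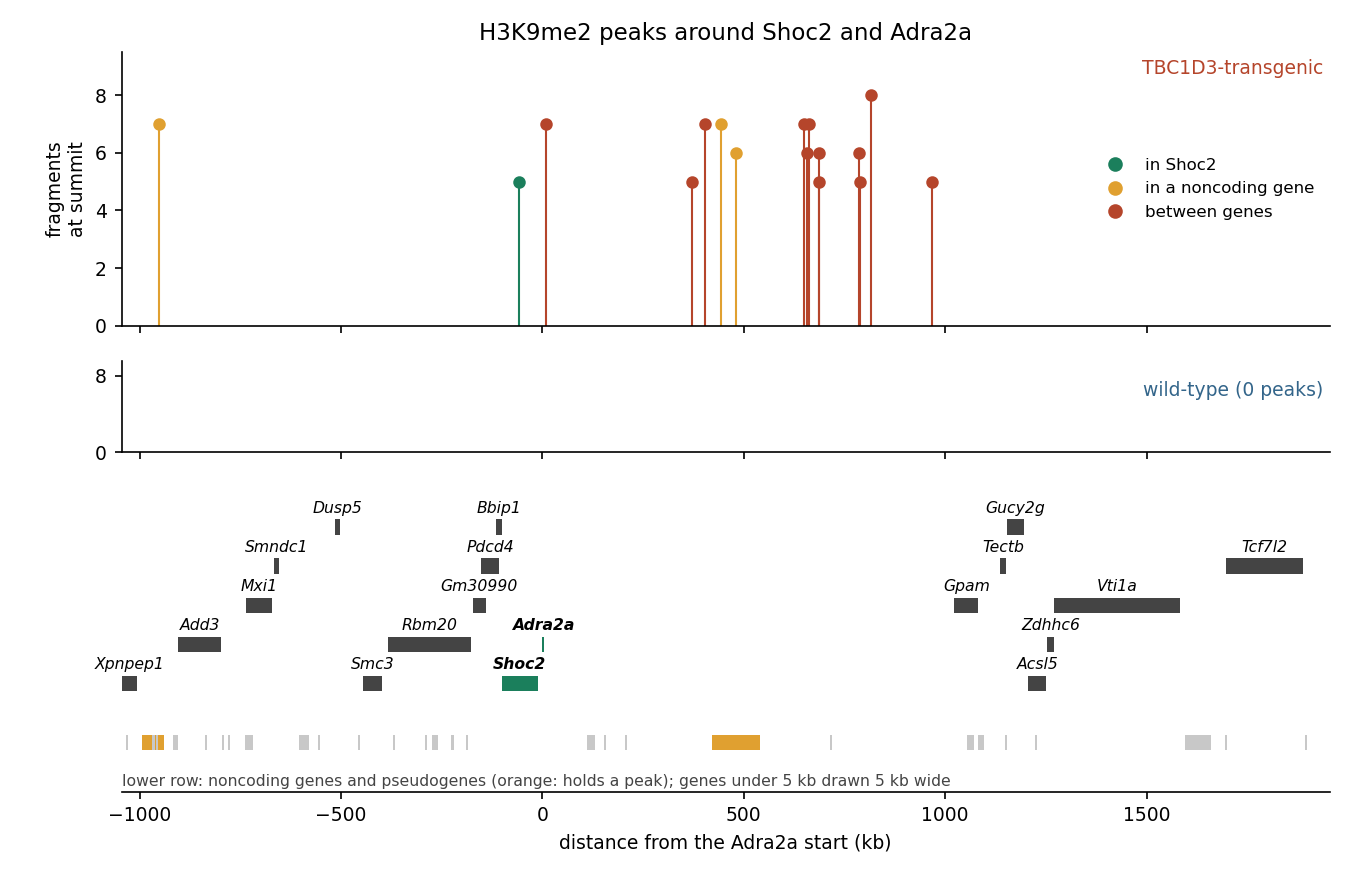
Peaks of the region by distance of the summit from the Adra2a start in kb, with the fragments at each summit (upper panel, TBC1D3-transgenic; middle panel, wild-type) and the RefSeq genes below. The 14 peaks between Adra2a and Gpam stand over a stretch without coding genes, and the wild-type panel holds 0 peaks.

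Adra2a itself was free of peaks. The gene is 3.72 kb long (54045259 to 54048982), and the peak nearest to it lay beyond its end, at 54053391 to 54053516. The edge of that peak was 4.41 kb and its summit 4.47 kb from the end of the gene, outside the 2 kb extension. It rested on 7 fragments with a fold enrichment of 3.41, a listed p of 8.22e-05 and a listed q of 0.216. These are the authors' own values for the peak, set against the input of the same library. The local background that the call set against this peak, 1.35 fragments, was the highest of the 16 and 1.60 times the genome-wide background of 0.841. With the gene extended by 10 kb, Adra2a held this 1 peak.

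Shoc2 held 1 transgenic peak, at 53986833 to 53986986, inside the gene body. Its summit was 42.7 kb from the first base of the 89.0 kb gene, at 47.9% of its length. The gene table used here gives no exons, so exon and intron were not told apart. The peak was among the weakest listed, with 5 fragments, a fold of 3.02, a p of 0.000555 and a q of 0.363. It was the only peak on a coding gene of the region, where 1 of 19 coding genes held a transgenic peak and 0 of 19 held a wild-type peak. Of all 21519 coding genes, 5.68% held a transgenic peak and 0.911% held a wild-type peak within the same 2 kb extension, so the count of 1 in 19 is near the background. Among the 710 coding genes of 80 to 100 kb, the class of Shoc2, 80 (11.3%) held a transgenic peak. Among the 4793 coding genes under 5 kb, the class of Adra2a, 36 (0.751%) did. A single peak on Shoc2 and none on Adra2a therefore do not set the genes apart from others of their length.

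The run between Adra2a and Gpam began with the lone peak behind Adra2a. After it came 364 kb without a peak, and the remaining 13 peaks fell into groups. The next 4 peaks (peaks 4 to 7 by position) stood within 109 kb, from 54417232 to 54526236. The later pair of these 4 lay in the body of Gm31301, a noncoding gene of 121 kb. They were 372, 403, 444 and 481 kb from the Adra2a start, and they rested on 5, 7, 7 and 6 fragments.

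The following 8 peaks (peaks 8 to 15) stood within 169 kb, from 54693535 to 54862035, and all lay between genes. The first 5 of these occupied 37.5 kb, with summits 648, 656, 662, 685 and 686 kb from the Adra2a start and pileups of 7, 6, 7, 6 and 5 fragments. The other 3 had summits at 787, 788 and 817 kb with 6, 5 and 8 fragments. The last of them, at 54861925 to 54862035, was the highest peak of the region, with a fold of 4.53, a p of 1e-06 and a q of 0.0742. The run ended with peak 16, a weak peak of 5 fragments at 968 kb from the Adra2a start and 54.2 kb before Gpam. Over the 14 peaks the distance to the nearest coding gene ranged from 4.47 to 477 kb, with a median of 349 kb. That gene was Adra2a for 5 peaks and Gpam for 9.

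The peak farthest from the run was the first of the region, at 53092260 to 53092371. It lay in the noncoding gene Gm30234 and 48.1 kb before Add3, which encodes the membrane skeleton protein gamma-adducin. It rested on 7 fragments, with a fold of 4.03 and a q of 0.132.

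Each peak rested on few fragments. The pileup is the number of ChIP fragments, extended to 111 bp, over the summit. Over the 16 peaks it ranged from 5 to 8 fragments with a median of 6, and the pileups added up to 99 fragments. By number of fragments, 5 peaks had 5, 4 had 6, 6 had 7, 1 had 8 and 0 had 9 or more. Peaks of 5 fragments made up 31.2% of the region's peaks, against 20.2% of the whole transgenic list, and peaks of 8 made up 6.25%, against 14.9%. Peaks of 9 or more fragments made up 6.94% of the list.

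**Figure D2:**
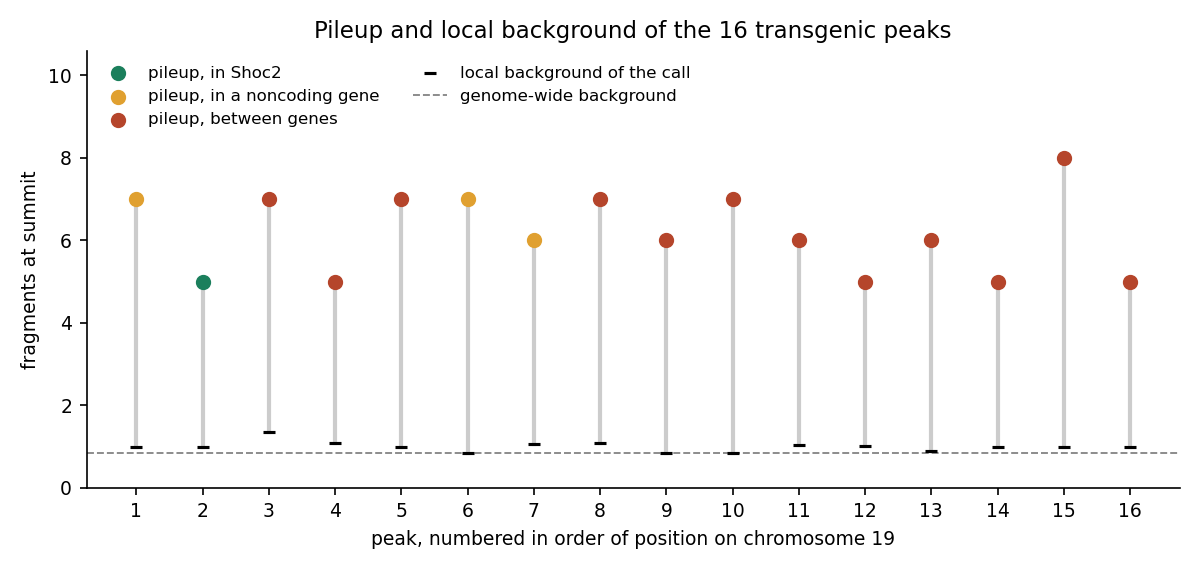
Fragments at the summit of each of the 16 transgenic peaks (points, coloured by place) and the local background of the call (black dashes), in the order of position. All pileups lie between 5 and 8 fragments, and the backgrounds lie between 0.841 and 1.35.

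Folds ranged from 2.88 to 4.53 with a median of 3.56 in the region, against a median of 3.62 over the whole transgenic list. A listed q of at most 0.1 belonged to 3 of the 16 peaks (18.8%), those at 54488919, 54707206 and 54861925, against 23.1% of the whole list. Widths ranged from 111 to 238 bp with a median of 134 bp, against 115 bp over the list. The smallest width equals the fragment extension, and 6 of the 16 peaks (37.5%) had it, against 46.6% of the list. The local background came to a median of 0.987 fragments in the region, against 0.997 over the list. It was at the genome-wide value (within 0.002) for 3 of the 16 peaks (18.8%), against 9.21% of the list. These were the peaks at 54488919, 54701621 and 54707206. Read density between the peaks is not part of the lists and was not analysed here.

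The spacing was short but uneven. The 15 distances between neighbouring summits ranged from 230 bp to 895 kb with a median of 37.2 kb, where all transgenic neighbours had a median of 219 kb and those on chromosome 19 one of 206 kb. Of the 15, 9 (60%) were under 50 kb and 4 (26.7%) under 10 kb, against 18.3% and 5.23% of all 6233 transgenic distances. Short distances follow from the choice of a region with a dense run, so these values are a description. The closest pairs were peaks 11 and 12, 230 bp apart at 54730655 and 54730885, and peaks 13 and 14, 509 bp apart at 54832343 and 54832852. They were listed as separate rows, with 110 bp and 388 bp from the end of one to the start of the next. Over the genome 70 transgenic distances (1.12%) were under 1 kb. Both distances exceed the fragment extension of 111 bp, so no extended fragment lay over both summits of a pair. Whether the rows of a pair belong to 1 enriched stretch was not tested. With rows within 1 kb merged, the region held 14 peaks with a median distance of 40.8 kb.

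**Figure D3:**
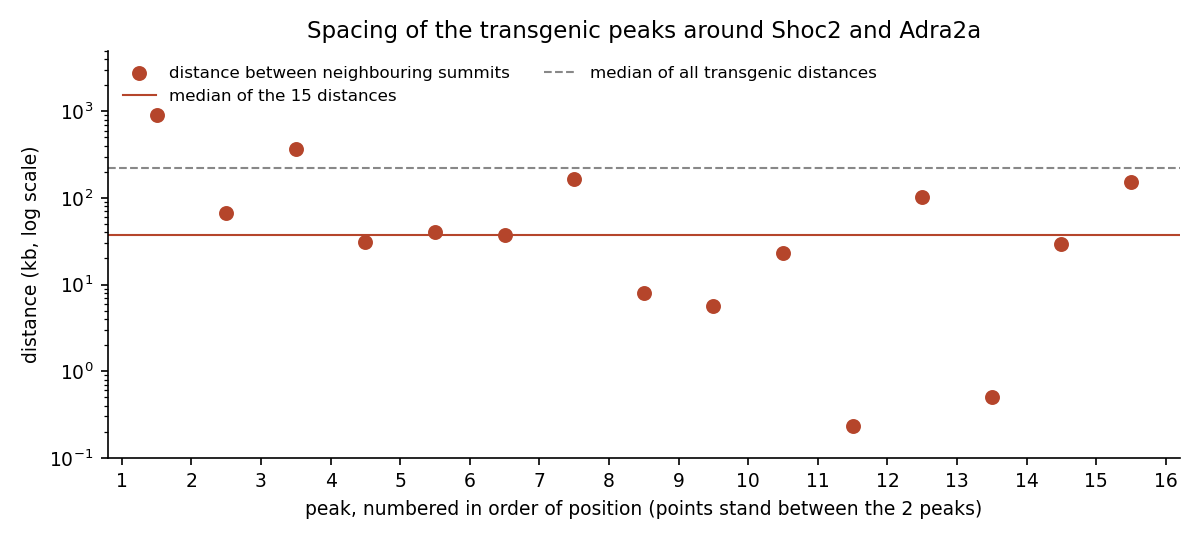
Distance in kb (log scale) between each pair of neighbouring summits, in the order of position, with the median of the 15 distances and the median over all transgenic peaks. Of the 15 distances, 9 are under 50 kb, and 2 are longer than the median of 219 kb over all transgenic peaks.

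Stretches with coding genes and without transgenic peaks lay before the Shoc2 peak, itself 66.6 kb before the run, and after peak 16. Before the Shoc2 peak, 894 kb held 0 transgenic peaks and 9 whole coding genes, namely Add3, Mxi1 (a Myc antagonist), Smndc1, Dusp5 (a nuclear Erk phosphatase), Smc3 (a cohesin subunit), Rbm20 (a splicing regulator), Gm30990, Pdcd4 (a translation inhibitor) and Bbip1 (a subunit of the ciliary BBSome, which overlaps Shoc2 by 396 bp). After peak 16, 1011 kb held 0 transgenic peaks and 7 coding genes. These are Gpam, Tectb (beta-tectorin of the inner ear), Gucy2g, Acsl5 (an acyl-CoA synthetase), Zdhhc6 (a palmitoyltransferase), Vti1a (a vesicle SNARE) and Tcf7l2 (a transcription factor of Wnt signalling). Over all coding genes 5.68% held a transgenic peak, but the stretches were drawn between neighbouring transgenic peaks. The 0 on these genes follows from the limits of the stretches and is no result about the genes. Of the 58 windows of 1 Mb on chromosome 19, 12 held 0 transgenic peaks. The first of the stretches begins after peak 1, and the second runs to the next transgenic peak past the region. That peak was 24.6 kb beyond the upper limit, at 56024491 to 56024619, with 8 fragments, and was followed by another with 6 fragments 24.9 kb beyond the limit. On the lower side the nearest outside peak, with 7 fragments, was 110 kb before the limit, and the first peak inside was 92.3 kb past it.

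Along chromosome 19 the most peaks lay in the megabase from 54 Mb. It held 13 transgenic peaks, against 2 in the megabase before it and 1 in the megabase after it. The highest count in any other 1 Mb window of the chromosome was 8, the mean over its 58 windows was 2.45, and 12 windows held 0. Over the whole region the density was 5.33 transgenic peaks per Mb, against 2.30 on the rest of the chromosome. The ratio was 2.32 (95% interval 1.29 to 3.92), an interval that makes no allowance for the choice of the region among many. Outside that 1 megabase the region held 3 peaks. In the wild-type list the region held 0 peaks per Mb, against 0.307 on the rest of the chromosome.

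**Figure D4:**
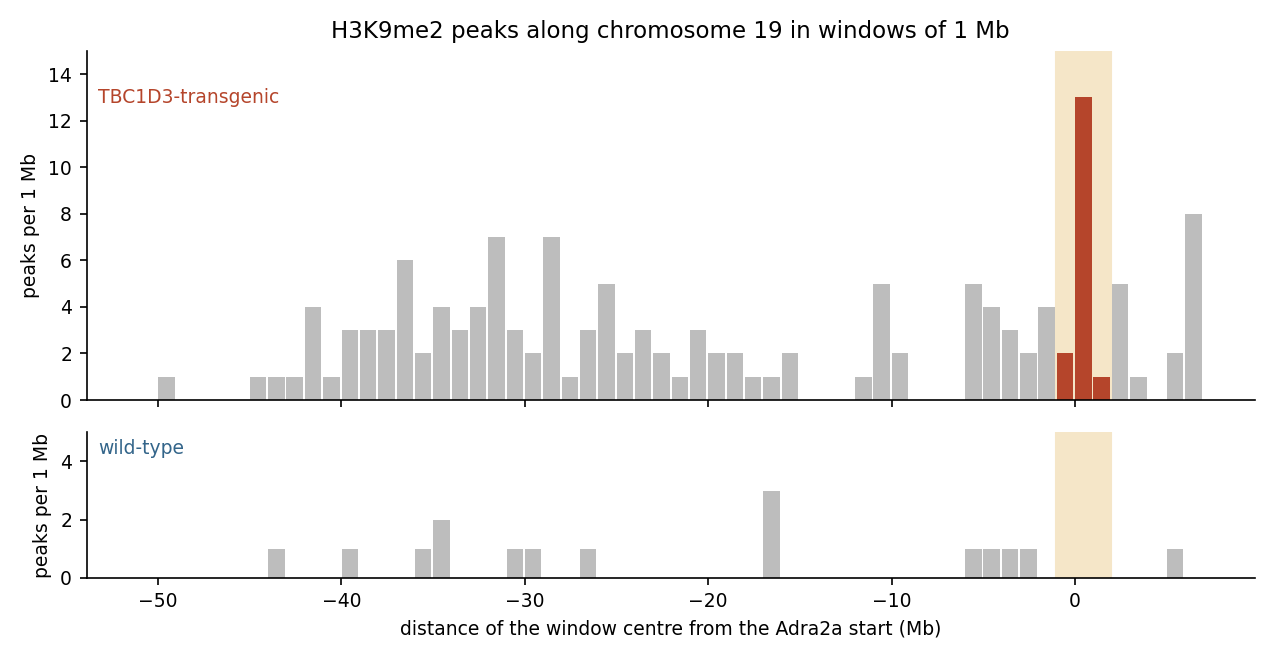
Peaks per 1 Mb window along chromosome 19 (upper panel, TBC1D3-transgenic; lower panel, wild-type) by distance of the window's centre from the Adra2a start in Mb, with the region shaded. The window with 13 transgenic peaks is the highest of the chromosome, and the wild-type list has 0 peaks in the region.

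Of 2394 autosomal windows of 1 Mb, 1 held more transgenic peaks than the 13 of this window, with 14. The mean over all windows was 2.54. The window was also placed among the 202 windows with 2 coding genes, itself included. These had a mean of 3.30 and a median of 3, and the next highest among them held 11. In windows of 3 Mb the region was less extreme. Its 16 peaks were exceeded in 11 of 777 windows, 17 windows held 16 with itself included, and the highest held 25.

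The interval between Adra2a and Gpam was placed among the 585 autosomal intervals of at least 500 kb between neighbouring coding genes, itself included. It held 13.7 transgenic peaks per Mb, against 3.32 over all of them together, and 2 were denser. The denser ones were shorter, from Tbc1d5 to Satb1 on chromosome 17 (555 kb, 9 peaks, 16.2 per Mb) and from Wdr72 to Onecut1 on chromosome 9 (579 kb, 8 peaks, 13.8 per Mb). Of the 66 other intervals of 900 to 1100 kb, the median held 3.5 peaks and the highest 11.

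**Figure D5:**
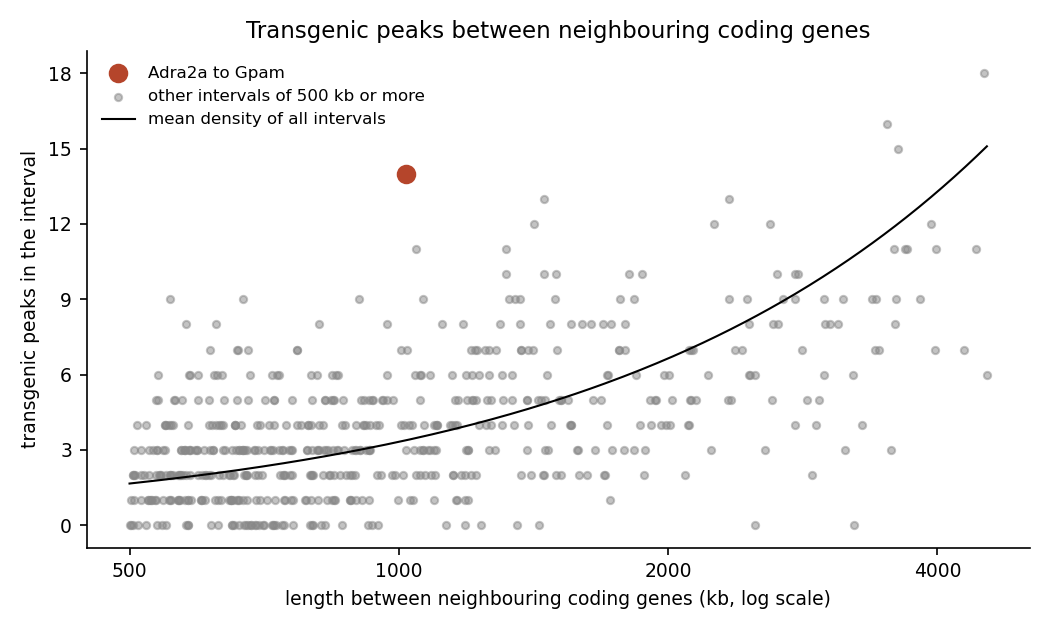
Transgenic peaks in each of the 585 autosomal intervals of at least 500 kb between neighbouring coding genes, by length in kb (log scale), with the number that the mean density of all of them gives. The interval from Adra2a to Gpam, with 14 peaks over 1019 kb, lies above every other interval of 900 to 1100 kb.

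The wild-type library listed no peak near these genes. Its nearest peaks on chromosome 19 were at 51392019 to 51392075, 1608 kb before the region and 713 kb from Sorcs1, a sortilin-type receptor gene, and at 59472934 to 59472997, 3473 kb past the region and 7.63 kb from Emx2, a homeobox gene of cortical progenitors. They rested on 6 and 7 fragments, and each was listed with a q of 1. Between them lay 8.08 Mb with 0 wild-type peaks and 27 transgenic peaks. The distance from a transgenic peak of the region to the nearest wild-type peak ranged from 1700 to 3621 kb.

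The 0 of the wild type does not amount to a measured difference at this list length. The rest of chromosome 19 gives 6.89 transgenic and 0.922 wild-type peaks for 3 Mb. As a share of its list, the region held 0.256% of the transgenic peaks (95% exact binomial interval 0.146 to 0.415). It held 0 of 743 wild-type peaks, where the same kind of interval reaches 0.495%. Reading the count of 0 as allowing up to 3 peaks gives a share of up to 0.404%. Both limits are above the transgenic share, so a lower share in the wild type was not detectable. Of the 777 autosomal 3 Mb windows, 46.6% held 0 wild-type peaks. The calls also differed in fragment extension, 111 bp for the transgenic library and 57 bp for the wild-type library, and how far this sets the lengths of the lists was not tested.

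Adra2a was the adrenergic receptor gene with the transgenic peak closest to it. That rank is a description only, since the region was chosen for its transgenic peaks. It rests on 1 peak of 7 fragments with a listed q of 0.216. Of the 9 genes of the family, 0 held a transgenic and 0 a wild-type peak within 2 kb, against 5.68% and 0.911% of all coding genes. The median length of the 9 was 4.04 kb, and of coding genes under 5 kb 0.751% held a transgenic peak, so 0 of 9 is near the background. Within 500 kb of the gene, Adra2a had 6 transgenic peaks, and so did Adrb3, the beta-3 receptor of fat tissue. Adra1b had 5, Adra2c 4, Adra1a 3, Adrb1 2, Adra1d 1 and Adra2b 0. The mean density of each chromosome gives from 2.20 peaks around Adra2c to 3.03 around Adra1a, and 2.46 around Adra2a. Adra2a was thus level with Adrb3 at that distance, with most of its run beyond 500 kb. Its nearest summit, at 4.47 kb, was the closest of the family, and the next were 27.6 kb from Adra1a and 51.5 kb from Adra1b. Adra2b and Adra2c, the alpha-2 receptors most like it, had their nearest summits at 504 and 99.3 kb. Adrb1 lies 2677 kb past Adra2a on the same chromosome, and its nearest transgenic summit was 359 kb away. In the wild-type list 7 of the 9 genes had 0 peaks within 500 kb, and Adra1a and Adra1b had 1 each.

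Among the 28 genes of the Shoc2 complex and of Ras to Erk signalling, Shoc2 was the one with a transgenic peak, and 0 held a wild-type peak. The partners of Shoc2 in its complex, Mras and the phosphatase 1 catalytic subunits Ppp1ca, Ppp1cb and Ppp1cc, held 0. So did the Ras genes Hras, Nras, Rras and Rras2, the Raf kinases Araf and Braf, the kinases Map2k1, Map2k2 and Mapk3, and the other members, from exchange factors (Sos1 and Sos2) to inhibitors of the pathway (Nf1, Rasa1, Lztr1, Spred1, Spred2, Dusp5 and Dusp6) and the scaffolds Erbin and Scrib. The count of 1 in 28 is below the 5.68% of all coding genes in share, and with so few genes it is no sign of a lack. The median length of the 28 was 55.2 kb, and the share among genes of that length was not computed. Within 500 kb, Shoc2 and Spred1 had 6 transgenic peaks each, the highest of the 28, where the median was 1. The 6 peaks around Shoc2 and the 6 around Adra2a are the same ones, peaks 2 to 7, as the genes are 11.98 kb apart. The region was chosen for its transgenic peaks, so the rank of Shoc2 is a description.

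The 1 Mb window with more peaks lies on chromosome 16, at the locus of Trp63, Tprg and P3h2, and overlaps 3 coding genes. Over 3 Mb there (from 24 to 27 Mb) the transgenic list had 18 peaks (95% Poisson interval 10.7 to 28.4), against 16 (9.15 to 26.0) around Shoc2 and Adra2a, and the intervals overlap. The chromosome 19 peaks stood closer, with a median spacing of 37.2 kb against 63.5 kb on chromosome 16, and 9 of 15 against 7 of 17 distances under 50 kb. They were also lower, with a median of 6 fragments against 7, a maximum of 8 against 10, and a q of 0.1 or less for 3 of 16 against 6 of 18. The wild-type list had 0 peaks in the region of chromosome 19 and 2 in that of chromosome 16. These differences were not tested, as both places were chosen for their number of peaks.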

How the data were processed

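Each genotype had 1 list of peaks, which the authors made with MACS 2.1.0.20150420 from 1 ChIP library and its input, per the file headers. Summits were called at a p of 0.001 without a shift model, and each position kept at most 1 tag, per the file headers. The submitters' processing notes name BWA, MACS2 and mm10. The deposited pileup signal counts extended fragments at the summit after scaling to the smaller of ChIP and input. Dividing by the scaling (1 transgenic, 0.951 wild-type) gave whole fragments within 0.02 for 100% of peaks. The deposited fold enrichment divides pileup plus 1 by local background plus 1, and from this ratio the background was computed. The deposited −log10 p and −log10 q values were used as listed, although the headers say that q is not calculated.

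Peaks were counted by summit, or on 21519 coding genes of RefSeq GRCm38.p6 by an overlap of at least 1 bp with the body extended by 2 kb. Genes starting before 3 Mb were left out, and chromosome length was taken from 3 Mb to the last gene (58.3 Mb on chromosome 19). Intervals are exact Poisson or Clopper-Pearson at 95%, and a count of 0 was read as allowing up to 3. With 1 library per genotype, no test between genotypes was made. Python 3.11.15, scipy 1.17.1 and matplotlib 3.10.9 were used, and the counting was tested on simulated data. The region, gene lists and tests were chosen with earlier results of these data known. Named genes were Shoc2, Adra2a, their neighbours, genes nearest to a peak and list members. The genes most like Shoc2 by peaks per kb are not given, since among genes with 1 peak that measure orders them by length alone. The other coding genes of the region, genes beside the nearest wild-type peaks and ends of dense intervals were named after their values were seen. Some list members are not reported here by name. No genome sequence was used, so the sequence of peaks was not analysed here.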

Additional observations from a re-analysis of the deposited data

How the results depend on the processing

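With 1 library per genotype no library could be left out. No paired analysis was possible because each genotype has 1 library. Of 37 alternatives for the transgenic list, 24 stayed close to the value and 13 did not, and of 33 for the wild-type list, 1 did not. Close means within 1.5 times for a count or the median spacing (a count of 0 had to stay 0), and inside the 95% interval for the density ratio. Where the main value was 0, as in every wild-type result, a stricter limit, merging or a smaller area could only return 0. Such alternatives count as close without testing anything. A fold of at least 5 left 0 transgenic peaks in the region, a density ratio of 0, and 0 on Shoc2, among the region's coding genes and in the Ras list. A −log10 p of at least 5 left 5 peaks in the region and 0 on Shoc2, among the region's coding genes and in the Ras list, while the density ratio was 2.79. The transgenic list shortened to its 743 peaks of lowest p left 1 peak in the region. The fewer peaks follow from the stricter limits. Of all 6253 transgenic peaks, 166 had a fold of at least 5 and 2036 a −log10 p of at least 5. An extension of 10 kb gave 1 transgenic peak on Adra2a, 2 coding genes of the region with a peak, 1 transgenic adrenergic receptor gene (Adra2a) and 1 wild-type one. Over the other settings the density ratio ranged from 2.05 to 3.30. The value of 2.05 came from the list of 743 peaks and rests on 1 peak in the region. Peaks of 5 to 8 fragments, most with a q above 0.1, limit each single position.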
